A study of Drosophila melanogaster with 4 samples.

Results

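Isolated Groucho peaks are the sites in a genome-wide map of Groucho binding that have no other called site close to them. They were chosen from the authors' peak list by spacing and width alone. A peak on the chromosome arms 2L, 2R, 3L, 3R or 4 was kept when it lay 5000 bp or more from the next peak on both sides and was 2000 bp wide or less, with the end of an arm counted as free. The rule found 1525 such peaks among the 9730 on these arms and the 11165 of the whole list. The list comes from white prepupae of Drosophila melanogaster, animals at the onset of metamorphosis, in which DNA bound by Groucho was pulled down with a rabbit polyclonal serum and sequenced (ChIP-seq). The series holds 2 Groucho ChIP libraries and 2 libraries of input DNA, all of the strain Y cn bw sp. Libraries of both kinds share one genotype. On X it carries y[1] and oc[R3.2]. The second group of alleles joins Gr22b[1] and Gr22d[1] with cn[1], CG33964[R4.2], bw[1] and sp[1]. The last group joins LysC[1] and lab[R4.2]. It also holds MstProx[1], GstD5[1] and Rh6[1]. No dissected tissue is named, so a site bound in a few cell types and a site bound weakly in many cannot be told apart.

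Groucho is a co-repressor of the Gro/TLE family. It lacks DNA binding of its own and relies on repressors that carry short peptide motifs, among them Hairy and the Enhancer of split proteins, the latter of which act downstream of Notch. It forms oligomers through its amino-terminal domain and binds the histone deacetylase Rpd3, and both spreading over wide stretches of chromatin and binding at discrete sites have been described for it.

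The values are 1 position and 1 score for each peak, with no value per library, so the spread between replicates cannot be given and read depth is unknown. The score is that of the authors' caller, on a scale that is not stated. Peaks were chosen from this same list, and the spacing, widths and scores below are therefore a description, with no test. Genes and sequence at the peaks were not analysed here, because the list is in coordinates of FlyBase release 5 while only a release 6 gene table was at hand.

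Isolated peaks were mostly narrow and of low score, with a small set of strong ones. Their median width was 390 bp, with quartiles of 279 and 592 bp and a range of 201 to 1889 bp. Their median score was 16.6, with quartiles of 11.71 and 27.88 and a range of 6.14 to 283.33. The other 7958 peaks of 2000 bp or less on the same arms were wider, with a median of 460 bp and an upper quartile of 730 bp. Those other peaks also scored somewhat higher, with a median of 18.01 and an upper quartile of 35.49. The distributions overlapped over almost their whole range, and the gap between them was in the upper part: the lower quartiles of score were 11.71 and 12.10.

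Strong sites were rarer among the isolated peaks. A score above 100 was held by 56 of them, or 3.67%, where 6.77% of all 9730 peaks on these arms scored as high (percent called, all widths) and 5.77% of the other peaks within the width limit did. Peaks in pairs were close to the isolated ones, with 3.87% above 100 and the same median score of 16.6. Of the 659 peaks above 100 on these arms, 8.50% were isolated, against 15.7% of the peaks of any score (percent called). Those 659 include 144 peaks over 2000 bp, which the rule leaves out and which lower the share. Divided at the quartiles of score of the whole list, the peaks on these arms had a lower isolated share in the top class. It was 17.9% for scores up to 12.27, 17.3% up to 18.38, 16.5% up to 36.9 and 10.8% above that. These shares too are over peaks of all widths. Within the width limit, 17.0% of the isolated peaks and 23.8% of the others were in the top class. Wide peaks were rarer as well. Among isolated peaks 100, or 6.56%, exceeded 1000 bp, against 13.1% of the other peaks within the width limit. Over all peaks on these arms it was 14.3% (percent called), which includes the peaks over 2000 bp that the rule leaves out. The narrowest width in the list, 201 bp, was no more frequent, with 20 isolated peaks or 1.31%, against 1.51% of all (percent called).

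Within a class of width, isolated peaks scored much like the others. Between 201 and 300 bp the median score was 11.26 for 461 isolated peaks and 10.82 for 1896 others. Between 301 and 450 bp it was 15.05 against 14.89, and between 451 and 700 bp 23.14 against 22.94. The order turned in the wider classes, with medians of 34.56 and 37.49 between 701 and 1000 bp, and of 61.47 and 62.81 between 1001 and 2000 bp. Over the 5 classes the ratio of the medians ran from 0.922 to 1.04, and in each class the quartile ranges overlapped. In the widest class 26.0% of isolated peaks and 26.6% of the others scored above 100. With the other peaks weighted to the widths of the isolated ones, 3.69% of them would score above 100, against the 3.67% observed. Score and width were correlated across peaks in both sets. Spearman's coefficient was 0.716 for the 1525 isolated peaks (Pearson 0.623) and 0.775 for the others (Pearson 0.609). Peaks of one list share their libraries and the caller, which reports both values.

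**Figure D1:**
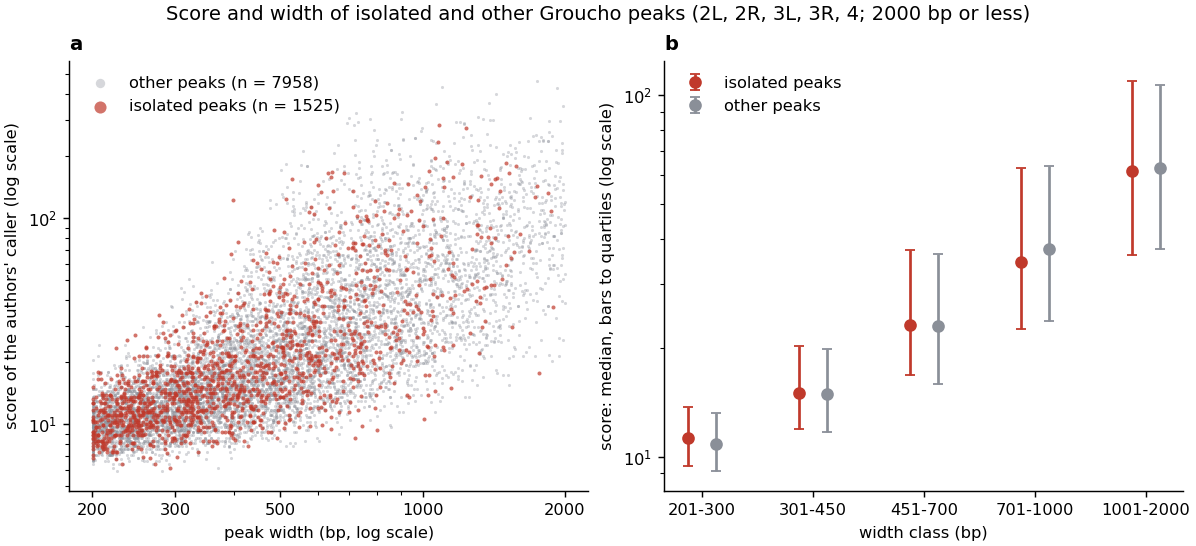
Score of the authors' caller against peak width, both on log scales, for every isolated peak and every other peak of 2000 bp or less on the same arms (a), and the median score with bars to the quartiles in 5 classes of width (b). The isolated peaks lie in the same band as the others, and the medians of a class differ by a ratio of 0.922 to 1.04, while few isolated peaks reach the upper right.

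The more peaks a group held, the wider its peaks were, where a group is a chain of peaks with gaps under 5 kb. Isolated peaks are the groups of 1 and had the smallest median width, 390 bp. Peaks of 2000 bp or less in pairs had a median of 424 bp, those in groups of 3 or 4 445 bp, and those in groups of 5 to 9 472 bp. The median reached 499 bp in groups of 10 to 19 and 524.5 bp in groups of 20 or more. Median score went from 16.6 for isolated peaks and for pairs to 21.37 in groups of 20 or more. The share of scores above 100 went the same way, from 3.67% to 8.63%. Inside one class of width no steady order was seen. Groups of 20 or more had the highest median score at 201 to 300 bp (11.41), 301 to 450 bp (16.25) and 701 to 1000 bp (40.9). In the last of these classes isolated peaks had the lowest, 34.56. The other classes did not follow that order. Peaks of 451 to 700 bp had median scores between 22.15 and 24.14 over all 6 sizes of group, and those of 1001 to 2000 bp between 55.33 and 64.88.

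**Figure D2:**
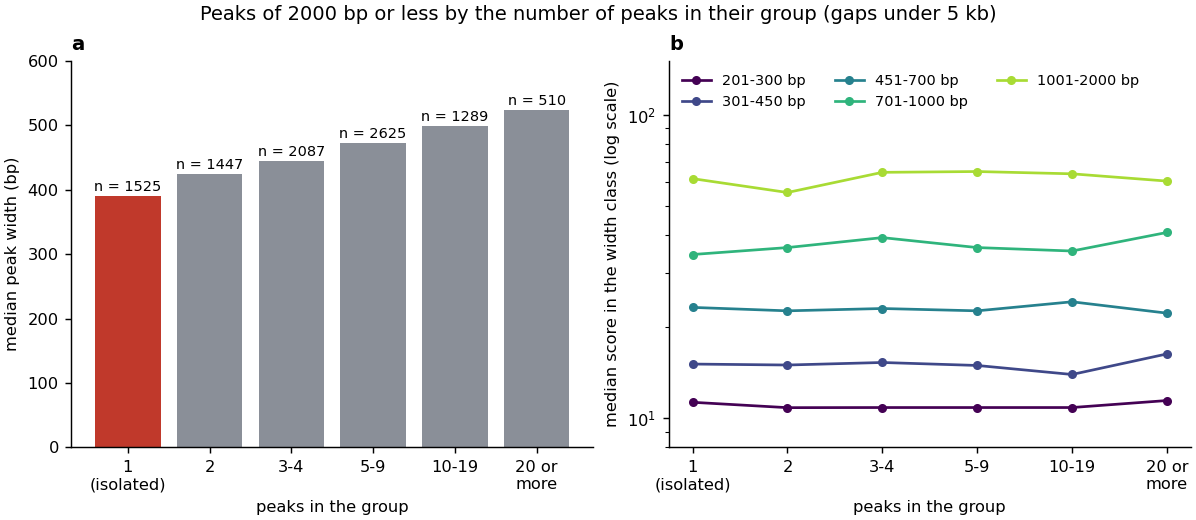
Median width of peaks of 2000 bp or less by the number of peaks in their group (a), and their median score within 5 classes of width on a log scale (b). Median width goes from 390 bp in isolated peaks to 524.5 bp in the largest groups, while no line of scores rises steadily.

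The strongest isolated peaks stood as single sites of about 1 kb. The highest, on 2R at 18270230 to 18271314 (FlyBase release 5, as all positions here), was 1085 bp wide and scored 283.33, which ranked 48 in the whole list. Its neighbours lay 6.98 and 13.4 kb away, and 21 other peaks were found within 100 kb. The next, on 3R at 5376232 to 5377466, scored 274.26 with gaps of 7.81 and 15.5 kb. Another, on 2R at 11563287 to 11564364, scored 236.19 and had a neighbour at 8.15 kb on one side and none for 56.5 kb on the other. These 3 were the only isolated peaks among the 100 highest scores of the list, and 34 were among the highest 500. Isolated peaks were 13.7% of the whole list. That list also holds X and the peaks over 2000 bp, which the rule leaves out. Of the 247 such wide peaks on these arms, 58.3% scored above 100.

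The remaining 7 of the 10 strongest isolated peaks scored between 168.39 and 195.69. On 2L they lay at 18795882 to 18796944, 13665271 to 13666849 and 21828071 to 21829104. On 3R they lay at 5253831 to 5254957, 11413777 to 11415277 and 12528416 to 12529059, and on 2R at 2122653 to 2123861. The 3R peak at 5253831 is close to a broad site of the same kind. That site, at 5243285 to 5245512, was free on both sides and scored 230.15, but its width of 2228 bp put it outside the limit, and 8.32 kb separate the pair. The strongest isolated peak of 3L, at 3225941 to 3227268, scored 161.37 and lay 10.3 kb from a long group of peaks. Over all 56 isolated peaks above 100, widths ran from 398 to 1870 bp with a median of 960.5 bp, and the median of the smaller gap was 10.2 kb. The narrowest of them, at 398 bp, lay on 3R at 8303106 to 8303503 and scored 122.67. It was the only peak of 301 to 450 bp on these arms to pass 100, isolated or not, among 2425 in that class, and was picked out after its value was seen.

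Some strong peaks were far from any other site. On 2L, the peak at 13665271 to 13666849 scored 179.48, was 1579 bp wide and had peak-free stretches of 32.5 and 87.8 kb on its sides. Only 4 other peaks lay within 100 kb of it. In all, 4 isolated peaks combined a score above 100 with gaps of at least 25 kb on both sides. The others lay on 2L at 5943573 to 5945098 (score 165.26), on 3L at 6058850 to 6059952 (156.74) and on 2R at 15556328 to 15557274 (108.69). They were 947 to 1579 bp wide, and their smaller gaps ran from 26.2 to 39.9 kb. The 2R peak was 1311 kb from the nearest long group of peaks.

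Scores were much alike over most distances to the nearest neighbour. The smaller of the gaps had a median of 9.55 kb, with quartiles of 6.73 and 15.2 kb. The larger gap had a median of 23.2 kb over the 1518 isolated peaks with a neighbour on both sides. Where the smaller gap was 5 to 7.5 kb the median score was 16.45 (518 peaks), and at 7.5 to 10 kb it was 17.3 (283 peaks). It was 15.91 both at 10 to 15 kb and at 15 to 25 kb, and 18.73 at 25 to 50 kb (121 peaks). The share of scores above 100 stayed between 3.28% and 5.01% over these 5 classes. Spearman's coefficient between smaller gap and score was 0.0029 over 1525 peaks (Pearson -0.024), and that between smaller gap and width was -0.064 (Pearson -0.051). The 36 peaks with at least 50 kb free on both sides were narrower, with a median of 275 bp and a median score of 14.24. None of them passed 33.63, and 0 of 36 above 100 allows a share of up to 8.33%.

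The sites with the very largest gaps lay at the ends of the arm sequences or on arm 4, and sites inside the large arms followed. On 2R, the first peak of the arm at 371144 to 371392 had its nearest neighbour 1200 kb away and scored 16.25. The last pair of peaks on 3L, at 23753290 to 23753641 and 24362594 to 24362808, were 609 kb apart and scored 19.48 and 9.41. The last peak of 2L, at 22419972 to 22420179, stood 274 kb from the next and scored 17.66. These 4 peaks were at the centromere side of their arms and were 208 to 352 bp wide. Next on the large arms came the 2L peak at 14816890 to 14817480, which had 117 and 178 kb free and scored 33.63. It lay 230 kb from the group of 58 peaks at 14471617 to 14586409. The other 4 of the 10 with the largest smaller gap had 80.6 to 89.9 kb free and scored 10.82 to 31.37. They lay on 2L at 1311995 to 1312808 and 15581089 to 15581332, on 3R at 23651629 to 23652025, and on 2R at 21102652 to 21102934, the last peak of its arm. The first peak of 3R, at 100 to 1472, differed from the other arm ends at the centromere side: it was 1373 bp wide, scored 81.2 and had 9 other peaks within 100 kb. Since nothing is called before base 100, it counted as isolated on that side only through the arm end. The rule counted 7 isolated peaks as free in this way. At the tips, the outermost isolated peaks of 2L (91489 to 91943), 3L (40035 to 40679) and 3R (27893411 to 27894069) scored 13.58, 22.15 and 20.95 and had 8 to 15 other peaks within 100 kb.

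Arm 4, a small and largely heterochromatic chromosome, had 10 peaks in all, of which 6 were isolated. In order along the arm they scored 9.96, 30.02, 24.54, 14.02, 50.94 and 52.02. The first 3 lay between 537883 and 578170, close to 4 further peaks, and the last 2 between 1334180 and 1347956. The fourth, at 828331 to 828564, stood alone with 250 and 506 kb on its sides. None scored above 100, but 6 peaks are too few to set beside the shares of the large arms.

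Isolated peaks had nearly the same density on each large arm. The rule itself bears on this, because denser peaks give more candidates but leave fewer of them 5 kb free on both sides. The densities, shares and window counts here therefore describe the rule as well as the peaks. They numbered 16.4 per Mb on 2L, 15.2 on 2R, 15.6 on 3L and 16.2 on 3R, whereas all peaks numbered 86.9, 110, 105 and 103 per Mb. The isolated share was accordingly highest on 2L, at 18.8%, and 13.8%, 14.8% and 15.7% on 2R, 3L and 3R, beside 15.7% over all the arms (percent called). Their median scores were 17.3 on 2L, 16.12 on 2R and 16.25 on both arms of chromosome 3. The share above 100 was 4.90% on 2L, 4.06% on 2R, 2.11% on 3L and 3.75% on 3R, which rests on 18, 13, 8 and 17 peaks. In the 94 complete windows of 1 Mb on these arms the number of isolated peaks had a mean of 15.9 (SD 4.85), and the number of all peaks a mean of 102 (SD 33.5). Relative to the mean the spread was much the same, with an SD of 0.305 and 0.327 times the mean. No window was without an isolated peak. The 24 windows richest in peaks, with 122 to 189 each, had a median of 16 isolated peaks, and the 24 poorest, with 1 to 80, a median of 13.5.

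Some stretches were richer in isolated peaks than others. The window at 7000001 to 8000000 on 2L held the most isolated peaks, 27 of 119. The window at 10000001 to 11000000 on 2L held 21 of only 38 peaks, so that 55.3% of its sites were isolated. That window contains a run of 7 isolated peaks in a row over 218 kb, at 10004144 to 10221923, with scores from 10.25 to 65.48. The longest unbroken run of isolated peaks numbered 9 and lay on 2L at 3094899 to 3303486, over 209 kb. Its scores ran from 9.56 to 69.59 with a median of 11.71. A run of 7 on 3R at 13769345 to 13882780 had a median of 31.82 and included a score of 107.32. Of the 1525 isolated peaks, 325 (21.3%) had an isolated peak as next neighbour on both sides, 726 (47.6%) on one side and 474 (31.1%) on neither. Runs of 3 or more held 45.2% of them. Isolated peaks were 44.2% of all 3454 chains on these arms, single peaks included, so such neighbours are frequent in a random order too. Whether the runs went beyond a random order was not tested.

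The density of isolated peaks varied along the arms. Each large arm was divided into 10 equal parts, counted from the centromere side, and pooled over the 4 arms the density was lowest next to the centromere, at 11.8 per Mb. It lay between 13.4 and 19.1 per Mb in all other parts. All peaks numbered 58.6 per Mb next to the centromere and 89.7 to 121 in the other parts. The lowest values were 6.63 per Mb on 2R and 7.80 on 3L, in the part next to the centromere, where all peaks also numbered only 25.1 and 39.0 per Mb. On 3R the same part held 16.8 isolated and 105 total peaks per Mb. The highest value was 25.1 per Mb in the part of 2R next to the tip. The share of peaks that were isolated was 20.1% in part 1, next to the centromere, and 20.5% in part 8, against 12.0% in part 4. The spacing rule favours a higher share where peaks are sparse, and all peaks numbered 58.6, 89.7 and 113 per Mb in these parts. Whether the share varied beyond that was not tested. Median scores by part ran from 14.56 to 18.73 with no steady trend.

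**Figure D3:**
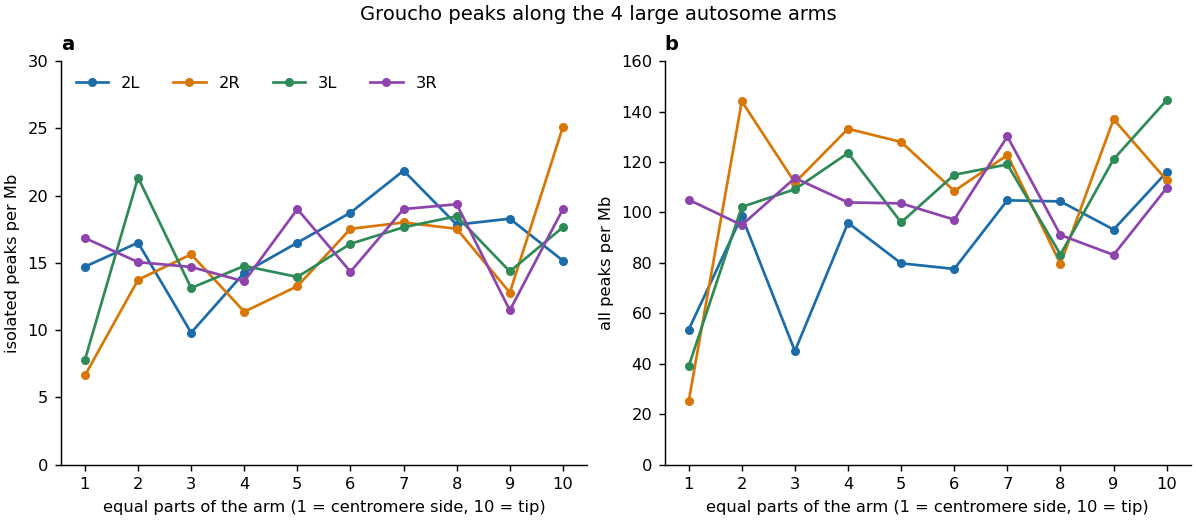
Isolated peaks per Mb (a) and all peaks per Mb (b) in 10 equal parts of each of the 4 large autosome arms, from the centromere side to the tip, with 1 line for each arm. Isolated peaks range from 6.63 to 25.1 per Mb and all peaks from 25.1 to 144 per Mb, and both are low next to the centromere on 2R and 3L.

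Most isolated peaks were far from the long groups of Groucho sites, taken as chains of 10 or more peaks, of which these arms hold 123. Over the 1519 isolated peaks on the large arms, the median distance from the edge of a peak to that of the nearest long group was 288 kb. The quartiles were 113 and 543 kb, and the range was 5.13 to 3274 kb. Other peaks of 2000 bp or less outside long groups had a median of 256 kb and quartiles of 85.0 and 521 kb. Within 25 kb of a long group lay 5.73% of the isolated peaks and 9.08% of those others. Beyond 250 kb the order was the other way, with 54.2% and 50.8%. Peaks in pairs had a median of 305 kb and peaks in groups of 5 to 9 one of 239 kb. By the definition of a group, none of these distances can be under 5 kb. The median for isolated peaks was longest on 2L, at 396 kb, where 23 long groups are found, and 246 to 291 kb on the other large arms.

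The next peak beside a long group was isolated somewhat less often than the share of isolated peaks among all chains. The next peak beyond a long group was isolated on both sides in 20 of the 123 groups, on one side in 54 and on neither in 49. That makes 94 of 246 sides, or 38.2%, where isolated peaks were 44.2% of all 3454 chains on these arms, single peaks included. At least 1 isolated peak lay within 50 kb of 95 of the groups, a count that was not compared with other places on the arms. The median number of isolated peaks within 50 kb of a long group was 1 and the highest 5. That number was reached at 2 groups, on 2L at 3769579 to 3791947 and on 3L at 1087752 to 1102832. Only 9 isolated peaks had a long group within 50 kb on both sides. By distance to a long group, the median score was lowest at 10 to 25 kb and highest at 25 to 50 kb. Isolated peaks under 10 kb away numbered 30 and had a median score of 16.25 and a highest of 73.88. None was above 100, and 0 of 30 allows a share of up to 10%. From 10 kb up to 25 kb the median score was 14.47, and from there up to 50 kb it was 19.48. Peaks between 50 and 100 kb away had a median of 17.66, and those between 100 and 250 kb one of 16.95. It was 15.91 up to 500 kb and 16.25 beyond. Spearman's coefficient between distance and score was -0.013 over 1519 peaks (Pearson -0.0071).

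**Figure D4:**
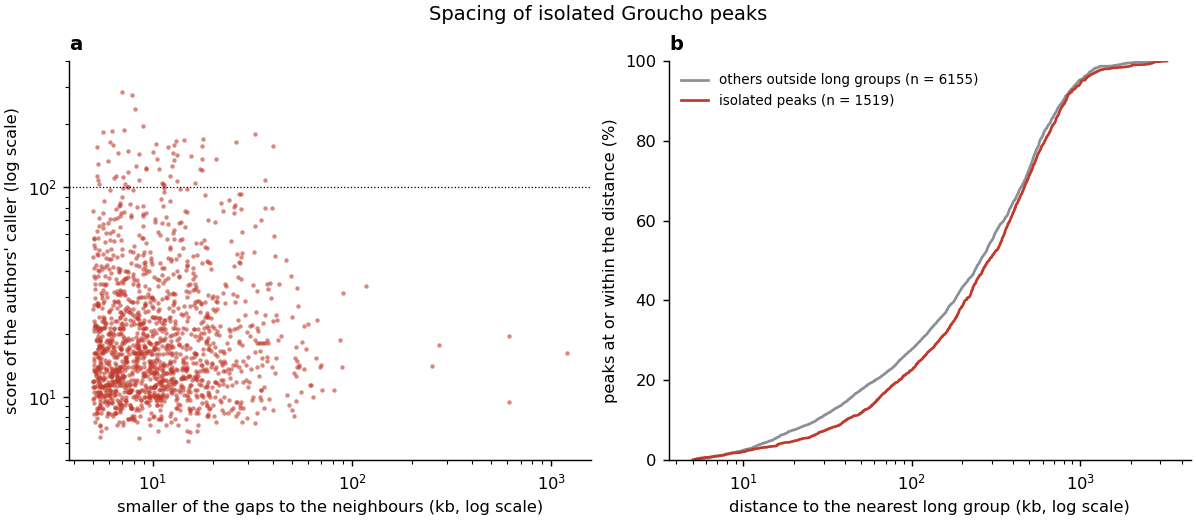
Score against the smaller of the gaps to the neighbours for each isolated peak, both on log scales, with a dotted line at 100 (a), and the percentage of peaks at or within a given distance of the nearest long group, with distance on a log scale (b). Median scores lie between 15.91 and 18.73 in the classes of gap up to 50 kb, and the line of isolated peaks runs to the right of that of other peaks, with medians of 288 and 256 kb.

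The number of peaks in the wider surroundings was lower around isolated peaks than around others, a direction that the rule itself favours. It allows an isolated peak no neighbour within 5 kb, while each other peak of the same width limit had at least 1. The counts and shares below therefore describe the rule as well as the peaks. They had a median of 4 other peaks within 25 kb, 9 within 50 kb and 19 within 100 kb, where other peaks of the same width limit had 9, 15 and 28. Thus 161 of them (10.6%) had no other peak within 25 kb and 38 (2.49%) none within 50 kb. Those 38 had a median width of 287.5 bp, a median score of 14.24 and a highest score of 33.63. Where fewer than 5 other peaks lay within 100 kb, 54.7% of all peaks were isolated, and where 30 or more did, 7.35%. The median scores of the isolated peaks in those settings were 16.78 and 16.25. The share above 100 was 1.79% of 280 isolated peaks where 30 or more others lay within 100 kb and 4.78% of 481 at 20 to 29. It was 3.45% to 3.91% in the less crowded settings, the sparsest of which held only 58 isolated peaks. These shares rest on few strong peaks. Stretches of at least 50 kb without a peak numbered 328, and 81.1% of them had an isolated peak at one or both ends, beside 68.3% of the stretches of 5 kb or more.

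The limits of the rule cut through a continuous range. Just inside the spacing limit, a pair of peaks on 2R at 3269080 to 3269669 and 3274670 to 3275107 stood exactly 5000 bp apart and scored 76.83 and 11.85. The next, on 2R at 7893921 to 7894629, had a smaller gap of 5001 bp and scored 26.19. Just outside it, with smaller gaps of 4995, 4982 and 4978 bp, were peaks on 3L at 5632654 to 5633552, 2R at 8356303 to 8356511 and 3R at 26647333 to 26648366. They scored 35.49, 7.57 and 40.27. The widest isolated peaks, on 3L at 11407277 to 11409165, 2R at 4081900 to 4083769 and 3L at 16653015 to 16654858, were 1889, 1870 and 1844 bp and scored 36.9, 108.69 and 132.77. The width limit removed 7 peaks that were free on both sides. The 3 nearest to it, at 2038, 2194 and 2228 bp, scored 101.9, 63.18 and 230.15. The other 4, at 2233 to 2974 bp, scored between 55.88 and 274.26.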

How the data were processed

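The titles of the libraries put 2 in the Groucho ChIP group and 2 in the input DNA group. The authors deposited 1 peak list, on FlyBase release 5 per the file headers, with MACS in its source column. The submitters' processing notes name MACS2, BWA, the build BDGP5, and CASAVA in versions 1.7.0.2 and 1.7.0.3. Whether libraries were pooled, and with what threshold and filters, is not stated there. Scores are deposited values of the authors' caller, of unstated scale, and were used only within this list. A caller that fuses or splits peaks would change which of them are isolated. Peaks were sorted by arm, gaps were next start minus previous end minus 1, and arm length was the end of the last peak. A long group was a chain of 10 or more peaks with gaps under 5 kb, and distances to it ran edge to edge, in kb. Positions are 1-based. Limits for counts of 0 are 3 divided by the number of peaks, an approximate 95% limit, and cover counting error only. They take the peaks as independent, which was not tested, and say nothing about the spread between libraries. Sites were named by fixed rules: the 10 highest scores, the highest on each arm, the 10 largest smaller gaps, the 3 widest, all on arm 4, the first and last on each arm, and those next to the limits. Other named windows, runs and sites were picked after their values were seen. Members, lists and settings were chosen with earlier results of these data known. The member search was tested on a simulated list. Calculations used Python 3.11.15, numpy 2.4.6, scipy 1.17.1, pandas 2.3.3 and matplotlib 3.10.9.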

Additional observations from a re-analysis of the deposited data

Results flagged for a closer look

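Peaks that fit the same limits were also found on sequences outside the comparison. On X, 325 of 1397 peaks (23.3%) were free for 5 kb on both sides and 2000 bp wide or less, or 14.6 per Mb, against 15.2 to 16.4 on the large autosome arms. Their median width was 408 bp and their median score 18.38, against 442 bp and 19.85 for the other X peaks within the width limit. Of these 325 peaks, 6.77% scored above 100, and the share among the other X peaks is not given here. On the 6 heterochromatic and unplaced sequences with peaks, 36 of 38 peaks met the limits, with a median score of 15.4 and a highest of 84.93. Spacing on unplaced sequence is that of the assembly's pieces, so those 36 are not comparable with the arms. Neither difference was tested.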

How the results depend on the processing

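The number of isolated peaks followed the spacing limit, with 2380 at 3 kb, 724 at 10 kb and 227 at 20 kb, and stayed between 1412 and 1850 under the other 7 settings. The median score was 33.18 when the rule was applied to the 50% of the list with the highest scores alone, and 17.3 with peaks joined across gaps under 1 kb. The median width was 634 bp and 452.5 bp in these settings, and 356 to 410.5 bp in the others. The share of scores above 100 was 2.20% at 20 kb, 2.11% with a width limit of 1000 bp and 8.53% among the highest-scoring 50%, where low scores are removed by construction. The ratio of that share between isolated and other peaks was 0.637, against 0.713 above the upper quartile and 0.877 above the median of the list. The median distance to a long group was 54.5 kb for groups of 5 or more peaks, 1772 kb for 20 or more and 459 kb for groups with gaps under 3 kb, since the number of groups changes. Leaving out the part of each large arm nearest the centromere (1 of 10), added after seeing the data, left the median score at 16.37. No paired analysis was possible because no column belongs to a single library, and for that reason no replicate could be left out. In addition, start sites and motifs, which need release 5 annotation or sequence, were not run. Depth is unknown, so a gap between peaks means only that nothing was called there.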
